A study of Mus musculus with 4 samples.

Results

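The gene group described here is a module of 8 mouse genes around the aryl hydrocarbon receptor (AHR), taken by name: Cyp1b1, Cyp1a1, Ahr, Ahrr, Arnt, Tiparp, Sult1a1 and Ephx1. All 8 were among the 54532 genes listed for every library and among the 13811 protein-coding genes that were tested, the filter being a sum of 10 counts or more across the 4 libraries. The names were chosen with earlier results of these data known, and the study itself labels Cyp1b1 in a plot of these libraries, so the choice of Cyp1b1 is no independent evidence. The 4 RNA-seq libraries came from primary microglia, cultured from male pups of CD1 mice aged 1 to 3 days. The EGCG group (2 libraries) had 24 h with 1 µM epigallocatechin gallate, a galloylated flavan-3-ol of green tea, and the Vehicle group (2 libraries) had the matching amount of DMSO. All cells were grown from mixed cortical glia with GM-CSF, freed of the astrocyte layer with trypsin and kept without serum in a medium with IL-34, TGFβ2, GM-CSF and cholesterol. Each group thus shares this medium, and the cells are a culture of neonatal microglia that can still hold other cells of the glial layer. The libraries carry replicate numbers 1 and 2, and the question is which transcripts EGCG alters.

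AHR is a ligand-activated transcription factor of the bHLH-PAS family that waits in the cytoplasm with HSP90 and the co-chaperone p23. Once bound by a ligand, it enters the nucleus, pairs with ARNT and binds DNA elements whose core reads GCGTG. Its best known targets are the cytochrome P450 enzymes CYP1A1, CYP1A2 and CYP1B1, which oxidise polycyclic aromatic compounds and oestrogens, the latter to catechols. Targets also include 2 brakes on the pathway, the AHR repressor (AHRR), which competes for ARNT, and TIPARP, an ADP-ribosyltransferase that acts on AHR. Catechols and other phenols, EGCG among them, are conjugated by enzymes that include sulphotransferases such as SULT1A1 and UDP-glucuronosyltransferases. Reactive epoxides left by P450 enzymes are hydrolysed by microsomal epoxide hydrolase (EPHX1) or joined to glutathione. In microglia, AHR is known as a sensor of dietary and microbial compounds that tempers inflammatory gene expression.

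The core element was searched in the 250 bases before the RefSeq start of each gene (build GRCm38.p6), on either strand. RefSeq promoters matched 7 of the 8 genes by symbol, Ahr being the exception. The core was present in 5 of the 7, against 28.2% of the 32851 promoter windows of the same length. The 3 windows printed here are those of the P450 target whose counts differed within both replicates, of its close relative that was almost not transcribed, and of the repressor, which held the most matches. The core, or its complement CACGC where it lies on the opposite strand, is in capitals, and each window is written 5′ to 3′ on the strand of the gene.
Cyp1b1, chr17:79715062-79715311, minus strand: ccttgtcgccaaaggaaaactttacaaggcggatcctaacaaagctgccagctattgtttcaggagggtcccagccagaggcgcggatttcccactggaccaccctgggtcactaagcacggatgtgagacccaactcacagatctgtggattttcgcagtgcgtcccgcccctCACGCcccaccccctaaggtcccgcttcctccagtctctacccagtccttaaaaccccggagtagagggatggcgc
Cyp1a1, chr9:57697363-57697612, plus strand: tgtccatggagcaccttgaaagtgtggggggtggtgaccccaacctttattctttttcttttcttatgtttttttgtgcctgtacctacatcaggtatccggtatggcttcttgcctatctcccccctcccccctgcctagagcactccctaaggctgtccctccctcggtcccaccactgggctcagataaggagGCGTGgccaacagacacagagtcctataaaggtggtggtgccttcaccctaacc
Ahrr, chr13:74292332-74292581, minus strand: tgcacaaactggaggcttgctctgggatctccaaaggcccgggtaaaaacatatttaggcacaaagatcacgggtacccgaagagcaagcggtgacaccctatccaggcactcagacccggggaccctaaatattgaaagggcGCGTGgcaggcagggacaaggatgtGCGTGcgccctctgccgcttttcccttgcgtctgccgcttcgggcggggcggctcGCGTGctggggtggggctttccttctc
The Cyp1b1 window held 1 core, on the opposite strand and 76 bases before the start. The Cyp1a1 window held 1 core at 54 bases, on the strand of the gene. The Ahrr window held 3, at 107, 82 and 27 bases. The windows of Arnt and Tiparp held 1 each, at 29 and 170 bases, and those of Sult1a1 and Ephx1 held none. The longer form TNGCGTG, which contains the core, was found in the Ahrr window only, against 4.10% of all promoter windows. A match is a string of letters in this window and says nothing about binding.

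Library totals ran from 33805071 to 54970300 counts, and 3 counts, the fewest taken as detectable, were worth between 0.0544 and 0.0936 CPM, the count scaled to a common library size by the TMM method. The EGCG library exceeded the Vehicle library in depth 1.51-fold in replicate 2 and 1.01-fold in replicate 1. Libraries of the same number deviated together from their group means (r = 0.641 over genes, whose values are not independent). For this reason the ratio of EGCG to Vehicle is given within each replicate number, with an exact (Clopper-Pearson) 95% interval that covers counting error only. No permutation of 2 libraries against 2 can reach a two-sided p of 0.05, and the p-values come from edgeR's quasi-likelihood F test, fitted over all genes. Thresholds were an unadjusted p under 0.05 and the stricter adjusted p under 0.1 (Benjamini-Hochberg), and a difference between treatments named without a statement on them passed neither in the fit without the replicate number. Without the replicate number in the model, all 8 genes had an adjusted p of 1.00. The series describes the replicates as independent biological replicates, without saying which animals they came from. All 12 microglia markers were detected, and their summed level was 5576 to 7031 CPM.

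Cyp1b1 was the one gene of the 8 that was lower with EGCG by over 0.5 on the log2 scale in both replicates, as were 1.72% of all genes tested. Counting error alone is a weak yardstick at this depth. The counting intervals of Ahr, Ahrr, Arnt, Sult1a1 and Ephx1 also excluded a ratio of 1 in at least 1 replicate. Cyp1b1 (ENSMUSG00000024087, chr17:79706953-79715041 on the minus strand, as the files give it) had 816 counts in replicate 1 under Vehicle and 436 under EGCG. In replicate 2 the counts were 333 under Vehicle and 282 under EGCG, at a greater depth in the EGCG library. As levels these were 24.9 and 13.6 CPM in replicate 1 and 9.08 and 5.11 CPM in replicate 2. Both EGCG libraries lay below their own Vehicle library, but the groups overlapped, since EGCG replicate 1 was above Vehicle replicate 2. The EGCG to Vehicle ratio was 0.547 (0.486 to 0.615) in replicate 1. In replicate 2 it was 0.563 (0.478 to 0.661), so the intervals of the 2 ratios lay on top of each other and well below 1.

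The group means of Cyp1b1 were 17.0 ± 11.2 CPM in Vehicle and 9.36 ± 6.01 CPM in EGCG (SD, n = 2 each). In the fit without the replicate number, the log2 fold change was -0.86 (SE 0.73, 95% interval -2.91 to 1.18) and passed neither threshold (adjusted p = 1.00). With the replicate number as a block, the estimate was nearly the same at -0.85 but its SE was 0.09 and its interval -1.09 to -0.61. This SE leans on variance shared across genes, since 4 libraries leave the blocked fit little residual freedom of its own. In that fit Cyp1b1 passed the unadjusted threshold and not the adjusted one (adjusted p = 0.586). DESeq2 with the block gave -0.86 (SE 0.22), which again passed only the unadjusted threshold (adjusted p = 0.161). Without the block, leaving out Vehicle replicate 1, the library with the highest level, turned the sign of the estimate, to 0.042. It was -1.73 without EGCG replicate 1, -1.44 without Vehicle replicate 2 and -0.35 without EGCG replicate 2. Each of these fits leaves the replicate numbers unequal between the groups, so its estimate also takes in the difference between the replicates.

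**Figure D1:**
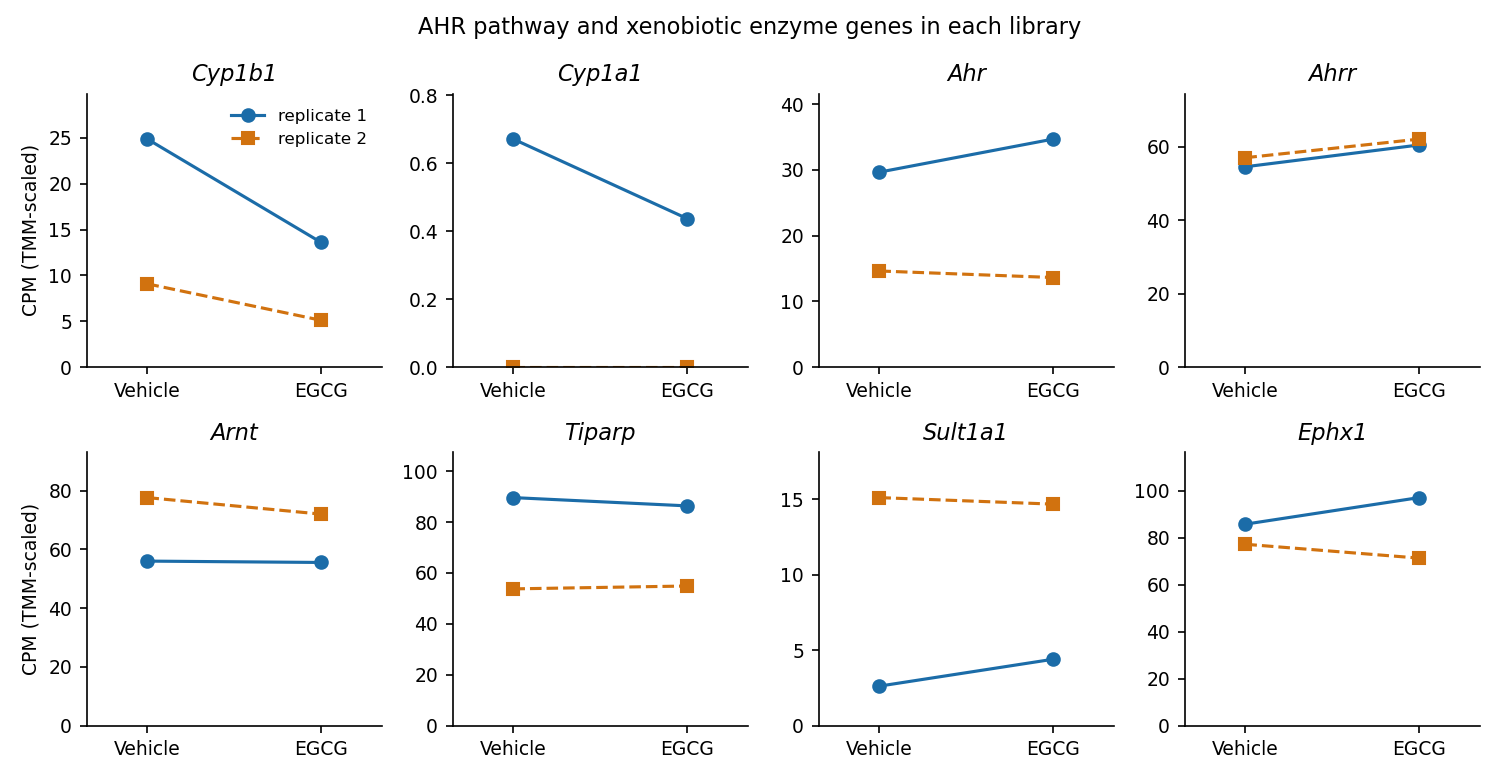
Level of each of the 8 genes in each library, in TMM-scaled CPM from 0 on the vertical axis, with a line joining the Vehicle and EGCG libraries of the same replicate number (circles and solid line, replicate 1; squares and dashed line, replicate 2). The lines of Cyp1b1 slope down, from 24.9 to 13.6 CPM in replicate 1 and 9.08 to 5.11 CPM in replicate 2. For Ahr, Tiparp and Sult1a1 the distance between the replicates exceeds the slope within them. On the log2 scale this also holds for Cyp1b1, at -1.45 (Vehicle) and -1.40 (EGCG) between replicates against -0.87 and -0.82 within them.

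Cyp1a1, the classical inducible target of AHR (ENSMUSG00000032315, chr9:57687928-57703824, plus strand), was close to absent. In replicate 1 the Vehicle library held 22 counts and the EGCG library 14, and both replicate 2 libraries held 0. The ratio in replicate 1 was 0.652 with a counting interval from 0.308 to 1.33, so no difference was detectable at this depth. The replicate 1 level was 8.19 times the floor of 3 counts of replicate 2 in Vehicle and 8.03 times in EGCG. These figures make no allowance for counting error in the 22 and 14 counts. Cyp1a2, the neighbouring family member and the one gene with a stretch of at least 200 bases at 90% identity to Cyp1a1, had 0 counts in all 4 libraries. Cyp1b1 was therefore the only CYP1 enzyme with more than 22 counts in any library.

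The receptor itself, Ahr (ENSMUSG00000019256, chr12:35497974-35535038, minus strand), stood at 29.7 CPM under Vehicle and 34.7 CPM under EGCG in replicate 1. In replicate 2 the levels were 14.6 CPM in Vehicle and 13.6 in EGCG. The replicates moved in opposite directions, with ratios of 1.17 (1.07 to 1.28) and 0.932 (0.833 to 1.04). The log2 fold change was 0.12 (SE 0.61) without the block and 0.07 (95% interval -0.18 to 0.32) with it, and passed in neither.

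Arnt, the DNA-binding partner (ENSMUSG00000015522, chr3:95434388-95497240, plus strand), had 56.0 and 55.6 CPM in Vehicle and EGCG replicate 1. In replicate 2 it had 77.7 and 72.0 CPM. Its ratios were 0.992 (0.929 to 1.06) and 0.928 (0.884 to 0.974), and its fitted difference was -0.07 on the log2 scale (SE 0.24), which passed neither threshold. The blocked interval of Arnt ran from -0.22 to 0.09, which does not reach the -0.85 of Cyp1b1.

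Ahrr, the repressor (ENSMUSG00000021575, chr13:74211118-74292331, minus strand), was the steadiest of the 8 genes across libraries. Its levels were 54.6 and 60.5 CPM in Vehicle and EGCG replicate 1 and 57.0 and 62.1 CPM in replicate 2. Both EGCG libraries were above both Vehicle libraries, so the groups did not overlap, which held in this direction for 1 of the 8 genes and for 6.39% of all genes tested. The means were 55.8 ± 1.74 CPM in Vehicle and 61.3 ± 1.13 CPM in EGCG (SD, n = 2 each). The ratios were 1.11 (1.04 to 1.18) and 1.09 (1.03 to 1.15). The difference of 0.14 on the log2 scale (SE 0.12) did not pass, and with the block its interval of -0.01 to 0.28 still held 0. Per kb of gene length, Ahrr exceeded Ahr 1.20-fold and 1.14-fold in the replicate 1 libraries and 2.55-fold and 2.97-fold in those of replicate 2.

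Tiparp, the ADP-ribosyltransferase target (ENSMUSG00000034640, chr3:65528410-65555518, plus strand), had 89.6 and 86.4 CPM in Vehicle and EGCG replicate 1. In replicate 2 it had 53.7 and 54.9 CPM. Within each replicate the EGCG library lay close to its Vehicle library, with ratios of 0.964 (0.915 to 1.02) and 1.02 (0.964 to 1.08). The fitted difference was -0.02 (SE 0.37), and the blocked interval ran from -0.16 to 0.14. Neither fit of Tiparp passed.

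Sult1a1, the phenol sulphotransferase (ENSMUSG00000030711, chr7:126672865-126676432, minus strand), had 86 counts (2.62 CPM) in Vehicle replicate 1 and 141 (4.40 CPM) in EGCG replicate 1. In replicate 2 it had 554 counts (15.1 CPM) in Vehicle and 810 (14.7 CPM) in EGCG. The ratio was 1.68 (1.28 to 2.22) in replicate 1 and 0.971 (0.871 to 1.08) in replicate 2, so the higher value was found in 1 replicate only. The fitted difference was 0.11 (SE 1.05) without the block and 0.30 (95% interval -0.22 to 0.82) with it, and passed in neither.

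Ephx1, the microsomal epoxide hydrolase (ENSMUSG00000038776, chr1:180976210-181020904, minus strand), had 85.7 and 97.0 CPM in Vehicle and EGCG replicate 1 and 77.2 and 71.3 CPM in replicate 2. Its ratios lay on opposite sides of 1, at 1.13 (1.08 to 1.19) and 0.924 (0.880 to 0.970). The fitted difference was 0.05 (SE 0.20) and the blocked interval ran from -0.18 to 0.25, and neither fit passed.

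Set against all genes, 0 of the 8 passed an unadjusted p under 0.05 with treatment as the only term, where 0.116% of the 13811 genes did. None passed an adjusted p under 0.1, where 0% of genes did in edgeR and 1 gene did in DESeq2 without the block. With the block, 1 of the 8 (Cyp1b1) passed the unadjusted threshold, against 3.21% of genes in either direction and 1.09% of genes in the lower direction. At the adjusted threshold the block gave 0 of the 8, against 0.00724% of genes, a single gene. Cyp1b1 was also the 1 member lower by over 0.5 on the log2 scale in both replicates, which held for 1.72% of genes. Of the 11620 genes with at least 10 counts in every library, 37 were lower to that extent in both. Among these, only Ltbp2, Dnah2, Grhl1, Cxcl1, Mylpf and Cdh5 were lower in both replicates by as much as the smaller difference of Cyp1b1, which was -0.82. These 6 were picked out after their values were seen.

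**Figure D2:**
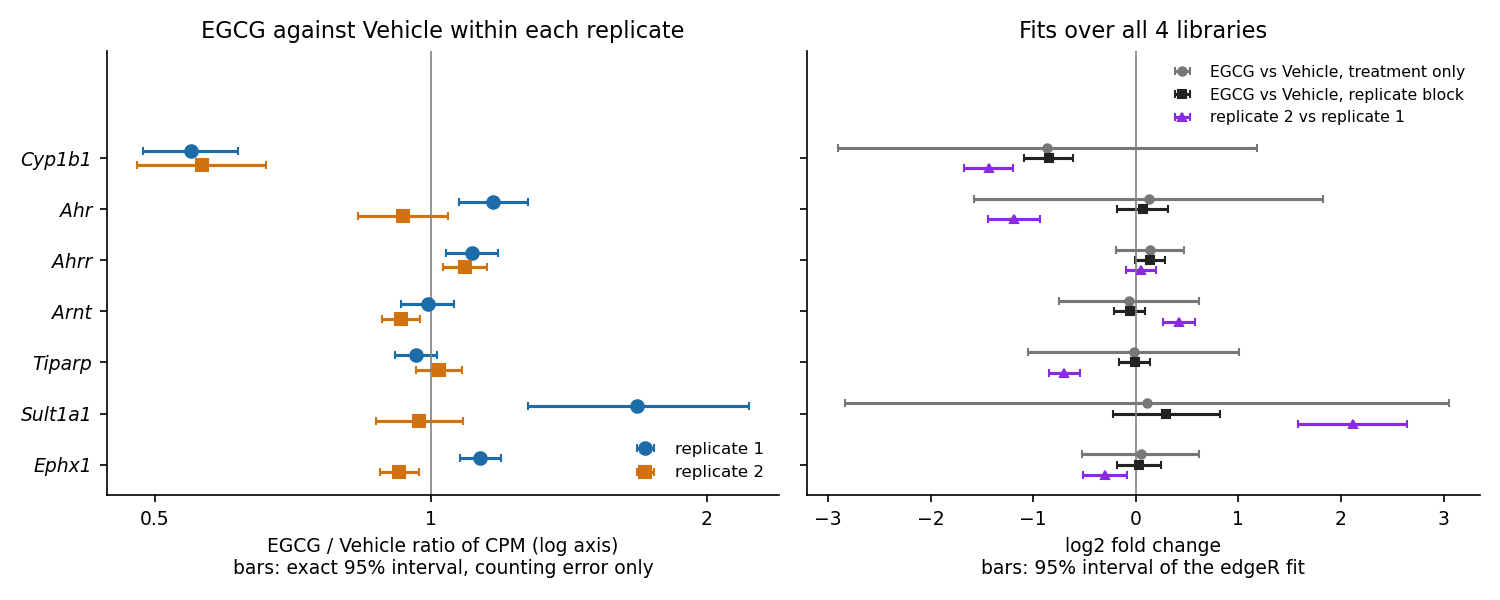
Left, ratio of EGCG to Vehicle CPM within replicate 1 (circles) and replicate 2 (squares) on a log axis, with exact 95% counting intervals. Right, log2 fold changes and 95% intervals of the edgeR fits, for EGCG against Vehicle without (grey) and with the replicate block (black), and for replicate 2 against replicate 1 (triangles). Cyp1a1, at 0 in replicate 2, is left out. The Cyp1b1 ratios of 0.547 and 0.563 stand apart from 1, and the widest grey intervals belong to the genes whose replicates lie furthest apart.

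The difference between the replicates was larger for most of these genes than the difference between treatments. Tested as replicate 2 against replicate 1 with treatment as a term, 7 of the 8 genes passed an adjusted p under 0.1, where 53.5% of all genes did, so that most genes differed between the cultures. Cyp1b1 was lower in replicate 2 by -1.43 on the log2 scale (SE 0.09, adjusted p = 0.000386), and in Vehicle alone replicate 1 was 2.74-fold higher. Ahr was lower in the same direction by -1.19 (SE 0.10, adjusted p = 0.000779). Tiparp followed with -0.70 (SE 0.06, adjusted p = 0.000828), and Ephx1 with -0.30 (SE 0.08, adjusted p = 0.0379). Cyp1a1 was detected in replicate 1 alone and also passed (adjusted p = 0.0152). It met the count filter only through the replicate 1 libraries, so its call is no independent evidence of a difference. With 10 counts required in every library it was not tested, and 6 of these genes passed, where 7489 of 11620 genes did. In the other direction, Sult1a1 was higher in replicate 2 by 2.12 (SE 0.21, adjusted p = 0.00127), which was 5.77-fold in Vehicle. Arnt was higher by 0.42 (SE 0.06, adjusted p = 0.00433). Ahrr was the gene that did not pass, at 0.05 (SE 0.06, adjusted p = 0.522), or -0.010 with upper-quartile scaling. The receptor and its targets Cyp1b1 and Tiparp were thus lower in replicate 2, Cyp1a1 being left aside, while Ahrr, also a target, did not pass. The partner Arnt and the sulphotransferase were higher. Of all genes, 25.7% passed as lower in replicate 2 and 27.7% as higher. The absolute difference between replicates had a median of 0.36 over all genes, and that of Cyp1b1 ranked at the 87.9th percentile, that of Ahr at the 84.4th and that of Sult1a1 at the 93.9th.

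Per kb of gene length, Ephx1 was the most abundant of the 8 transcripts, with 36.6 to 49.8 CPM per kb over the 4 libraries. Tiparp followed with 12.3 to 20.6, Arnt with 6.94 to 9.70 and Ahrr with 5.78 to 6.58 CPM per kb. Next came Sult1a1 with 1.74 to 10.03, Ahr with 2.21 to 5.63 and Cyp1b1 with 0.997 to 4.85 CPM per kb. Cyp1a1 was last at 0 to 0.241. In this order the ranges of Ephx1, Tiparp, Arnt and Ahrr did not overlap, whereas those of Ahrr, Sult1a1, Ahr and Cyp1b1 overlapped with their neighbours. By mean CPM per kb, Cyp1b1 stood at the 40.6th percentile of the genes tested, Ahr at the 47.3rd, Tiparp at the 79.8th and Ephx1 at the 92.7th. The ratio of Cyp1b1 to Ahr per kb was 1.01 in Vehicle and 0.472 in EGCG replicate 1, and 0.747 and 0.451 in replicate 2.

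**Figure D3:**
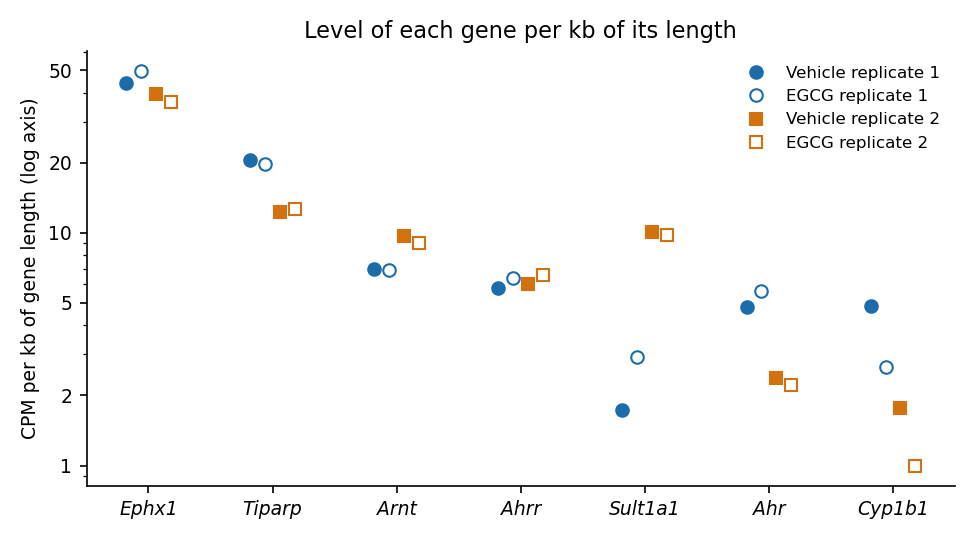
CPM per kb of gene length in each library on a log axis, for the 7 genes detected in every library, ordered by mean level (circles, replicate 1; squares, replicate 2; filled, Vehicle; open, EGCG). Ephx1 lies between 36.6 and 49.8 and Cyp1b1 between 0.997 and 4.85 CPM per kb, while Sult1a1 splits by replicate into 1.74 and 2.92 in replicate 1 and 10.03 and 9.74 in replicate 2.

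The libraries were made to keep the strand, but the strand setting of the counting is not given, so some of these counts could hold reads of other genes. Sult1a1 overlaps the end of Sgf29, a protein-coding gene on the other strand with 299 to 646 counts. Tiparp overlaps the antisense pseudogene 4931440P22Rik, which had 134 to 240 counts. The genes overlapping Ahr (Gm48236), Arnt (Gm42672) and Ephx1 (Gm36961) had at most 21 counts. Cyp1b1, Cyp1a1 and Ahrr overlap no listed gene, and apart from Cyp1a1 none of the 8 has a near-identical copy. The GENCODE M21 annotation gives Cyp1b1 a longer span, chr17:79701537-79715061. Its overlaps and its CPM per kb rest on the shorter span and the gene length deposited with the counts.

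The wider pathway was read from 6 lists of 90 genes in all, of which 74 were tested. Without the block, 0 of the 74 passed the unadjusted threshold in edgeR, where 0.116% of all genes did. With it 4 did, 2 higher and 2 lower, where 3.21% of all genes did. Their median log2 fold change was 0.01, as was that of all genes tested. Of the 74, 15 were lower and 23 higher in both replicates, where over all genes it was 2851 and 4135 of 13811.

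Among the AHR complex and its bHLH-PAS relatives, 14 of 15 genes were tested, 0 passed in either fit, and the median was 0.01. Hsp90ab1, the chaperone that holds the receptor, stood at 1302 to 1529 CPM. Ptges3, which encodes p23 and has near-identical copies elsewhere in the genome, had -0.10 and -0.11 on the log2 scale in the 2 replicates. Arnt2, a close relative of Arnt, had 22.4 and 21.8 CPM in Vehicle and EGCG replicate 1 and 3.87 and 5.55 CPM in replicate 2, so its level differed more between replicates than within them.

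Among 14 genes of the AHR battery, 12 were tested and 0 passed without the block. With it, 1 passed, Cyp1b1, where 3.21% of all genes did, and the median was -0.06 without the block. Nqo1, a quinone reductase driven by AHR and by NRF2, held 406 and 371 counts in the Vehicle and EGCG libraries of replicate 1 and 116 and 83 in replicate 2. Its within-replicate differences were thus unequal, at -0.10 and -1.05 on the log2 scale, and it passed in neither fit. Gsta2, a glutathione transferase with near-identical relatives, went the other way with 0.43 and 0.62 and did not pass either. Gsta4, which detoxifies products of lipid peroxidation, had -0.41 and -0.20. Cyp1a2 and Inmt were at 0 in all libraries. In the replicate contrast, 8 of the 12 battery genes were lower in replicate 2 and 0 were higher at an adjusted p under 0.1, where 25.7% of all genes were lower and 27.7% higher. The genes supplying electrons to P450 enzymes had 9 of 12 lower and 2 higher. Epoxide hydrolases and glutathione transferases had 10 of 17 lower and 2 higher. The AHR complex list had 7 of 14 lower and 5 higher, conjugation 5 of 14 and 3, and the kynurenine route 1 of 8 and 2. All lists together had 40 of 74 lower and 14 higher. The lower genes include Cyp1a1, an AHR target that met the count filter only through the replicate 1 libraries. No list was counted again with 10 counts required in every library.

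Of 24 genes for conjugating catechols and phenols, 23 were listed under their symbols, 14 were tested, and 0 passed in either fit, with a median of 0.02. Comtd1 gave 0.16 and 0.03 on the log2 scale in the 2 replicates. Papss2, which makes the sulphate donor of sulphotransferases, gave 0.66 and 0.17 from 24 to 134 counts. The other sulphotransferases of the list were nearly silent. Sult2b1 had 3 to 15 counts, and Sult1b1, Sult1c1, Sult1c2, Sult1d1 and Sult1e1 had 0 counts in all libraries, and so did Ugt1a9 and Ugt1a10. Most glucuronosyltransferase counts fell on Ugt1a7c, at 89.3 to 111 CPM, a gene that shares exons with 8 relatives and whose counts are therefore uncertain.

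All 17 epoxide hydrolases and glutathione transferases were tested, and 0 passed without the block, with a median of 0.05. With the block, Gstm1 (0.19, SE 0.06) and Gstm2 (0.60, SE 0.24) were higher and Gstp1 (-0.35, SE 0.13) was lower with EGCG at the unadjusted threshold, and none of them at the adjusted one. Of all genes, 3.21% passed the unadjusted threshold with the block. Gstm1, Gstm2 and Gstp1 encode cytosolic transferases with near-identical relatives or pseudogenes. Gstm2 had 595 and 670 counts in Vehicle and EGCG replicate 1 and 51 and 175 in replicate 2. Ephx2, the soluble epoxide hydrolase of lipid epoxides, was higher in both replicates at 0.53 and 0.74 on 10 to 70 counts and passed in neither fit. Gstt2 had -0.12 and -0.44.

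Of the 12 genes that supply electrons to P450 enzymes or break down haem, 0 passed in either fit, and the median was 0.00. Por, the reductase on which CYP1B1 depends, had 101.1 and 105.2 CPM in replicate 1 and 219.1 and 198.8 CPM in replicate 2. Fdx1, the mitochondrial ferredoxin, gave 0.30 and 0.17 on the log2 scale. Hmox1, haem oxygenase, stood at 589.2 to 689.7 CPM. Of 11 genes of the kynurenine route, which makes AHR ligands from tryptophan, 8 were tested and 0 passed in either fit. Their median was 0.09 in the fit without the block, but -0.04 within replicate 1 and -0.10 within replicate 2. The enzymes that open the route were scarce, with Ido1 at 2 counts in Vehicle replicate 2 and 0 elsewhere, Tdo2 at 1 count in EGCG replicate 1 and 0 elsewhere, and Ido2 at 17 to 94 counts. Kynu, kynureninase, had 0.38 and 0.06, and Kyat1, a kynurenine aminotransferase, had -0.38 and -0.19.

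**Figure D4:**
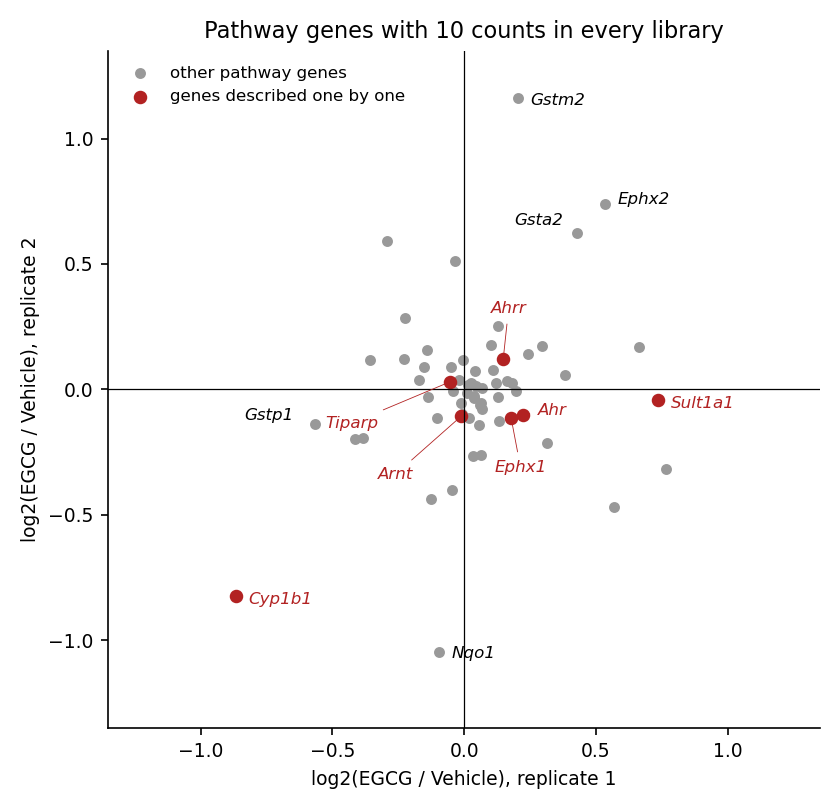
Log2 ratio of EGCG to Vehicle in replicate 1 (horizontal) against replicate 2 (vertical) for the 64 pathway genes with at least 10 counts in every library, the 7 genes described one by one in red. Cyp1b1 lies alone in the lower left corner at -0.87 and -0.82, Nqo1 at -0.10 and -1.05, and most other genes lie near 0 on both axes.

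The P450 family was taken as the 100 protein-coding genes whose symbol starts with Cyp and a digit, so P450 genes under other symbols are not covered. Among these 100, 74 had no more than 3 counts in any library, 24 were tested and 12 had at least 10 counts in every library. Per kb, the 3 most abundant were Cyp4v3 (32.8 CPM per kb), a fatty acid hydroxylase, Cyp27a1 (16.3), the sterol 27-hydroxylase, and Cyp20a1 (11.6). Cyp1b1 came seventh with 2.57. Of the 12, Cyp1b1 was the 1 gene lower by over 0.5 on the log2 scale in both replicates. Cyp4v3 gave 0.19 and 0.03 and Cyp27a1 gave 0.63 and -0.14. Cyp27a1 had 280 and 425 counts in replicate 1 and 2312 and 3151 in replicate 2, so that it was higher in replicate 2 by 2.48 (adjusted p = 0.000552).

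The genes whose profile lay nearest to that of Cyp1b1 over the 4 libraries were Serpinb2, Ptpn14, Egfr, Igsf3 and Orm1. Likeness was the Euclidean distance of centred log2 CPM among 11214 genes, and it ran from 0.249 for Serpinb2 to 0.411 for Orm1. Serpinb2, which encodes an inhibitor of plasminogen activators, had 67.4 and 37.7 CPM in Vehicle and EGCG replicate 1 and 26.8 and 17.4 CPM in replicate 2. With the block it passed the unadjusted threshold at -0.73 and not the adjusted one in edgeR (adjusted p = 0.583), and both in DESeq2 (adjusted p = 0.00116). The other 4 had at most 118 counts in any library, and Orm1 resembles Orm2 along its whole transcript. With 4 libraries such a likeness is a description only, and these genes share the difference between the replicates as well as the treatment.

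Of the markers of other cells, the stromal and astrocyte sums were lower with EGCG in replicate 1, although no single marker of these lists passed the unadjusted threshold in either fit. The summed level of 14 stromal and mural markers in replicate 1 was 722.7 CPM under Vehicle and 261.0 under EGCG, against 343.8 and 361.6 CPM in replicate 2. Of the 13 tested, 11 were lower by over 1 on the log2 scale in replicate 1 and 0 were in replicate 2. Of all 13811 genes tested, 753 were lower to that extent in replicate 1 and 205 in replicate 2. Col1a1, for example, had 3962 and 4 counts in replicate 1 and 1344 and 2040 in replicate 2. The exceptions in replicate 1 were Postn and Pdgfra, and Rgs5 had at most 1 count. The 10 astrocyte markers summed to 23.1 and 17.1 CPM in replicate 1 and 14.5 and 15.6 CPM in replicate 2. The Cyp1b1 ratio was 0.547 in replicate 1 and 0.563 in replicate 2, and the part of these markers in it was not tested. Endothelial markers summed to 182.6 and 180.5 CPM in replicate 1 and 73.1 and 81.4 CPM in replicate 2, with Cldn5 at 0 in all libraries, and Cdh5 was among the genes lower in both replicates (-1.51 and -1.77) and passed the unadjusted threshold with the block. Oligodendrocyte lineage markers summed to between 118.3 and 156.3 CPM, with Mog at no more than 1 count. The astrocyte, endothelial and oligodendrocyte sums were higher in the replicate 1 libraries, as Cyp1b1 was. The microglia sum was 5576 and 6063 CPM in Vehicle and EGCG replicate 1 and 6921 and 7031 CPM in replicate 2. Of the 12 markers, 7 were higher under EGCG in both replicates, as were 4135 of all 13811 genes tested. With the block, 1 marker (Trem2) passed the unadjusted threshold as higher, where 293 of all genes did. The part of these sums in the level of Cyp1b1 was not tested. In bulk RNA, fewer cells of a type and less RNA per cell cannot be told apart.

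**Figure D5:**
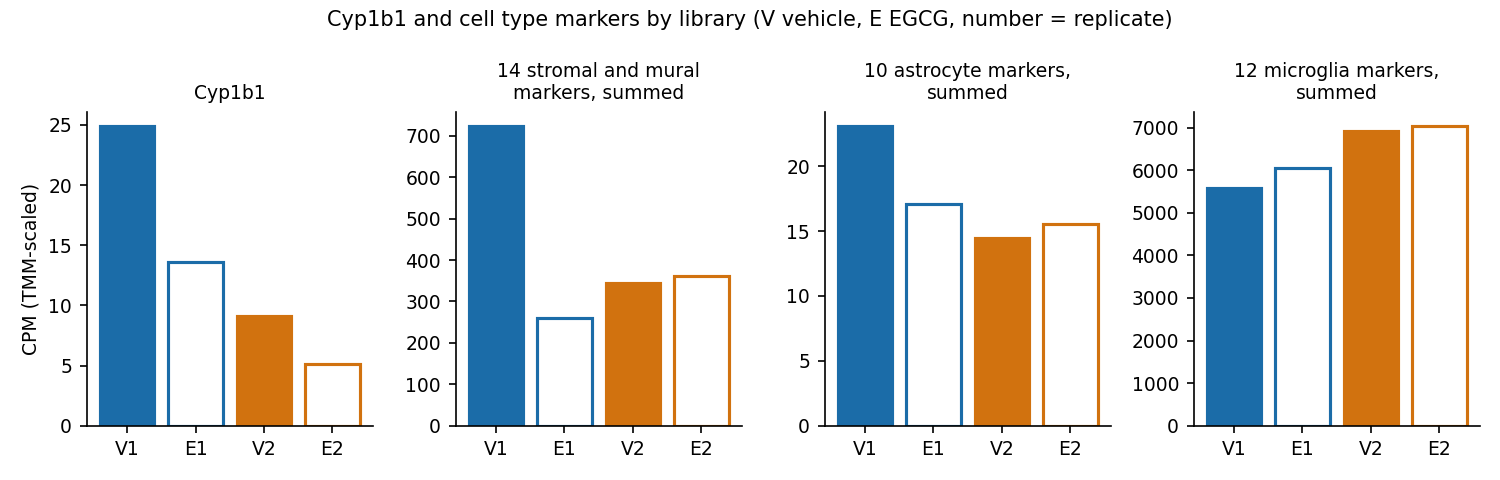
Level of Cyp1b1 and summed levels of 14 stromal and mural, 10 astrocyte and 12 microglia markers in each library, in TMM-scaled CPM from 0 (V, Vehicle; E, EGCG; number, replicate). The stromal sum drops from 722.7 to 261.0 CPM in replicate 1 and stands at 343.8 and 361.6 CPM in replicate 2, while Cyp1b1 is lower with EGCG in both.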

How the data were processed

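Poly-A RNA of primary mouse microglia was sequenced in 4 libraries, grouped by the sample labels. The authors filtered the reads, aligned them with HISAT2 to GRCm38.p6 and deposited raw counts per gene in 1 table per replicate number, with a column for each treatment. The counting program, annotation, strand setting and treatment of reads matching several genes are not given in the sources used here. The 8 genes, the gene lists and the marker lists were chosen with earlier results of these data known.

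Both tables were merged by Ensembl identifier. The main test was the two-sided quasi-likelihood F test of edgeR 4.0.16 in R 4.3.3, with TMM scaling and treatment as the only term, and DESeq2 1.42.0 was an alternative. The fit took protein-coding genes whose counts over all libraries came to 10 or more, with Benjamini-Hochberg adjustment over all of them. Thresholds were an unadjusted p under 0.05 and an adjusted p under 0.1, as in the study. Log2 differences within a replicate used a prior count of 2. CPM per kb divided by the gene length in the files. SEs of the edgeR fits were worked back from the log2 fold change and the F statistic, with intervals from the t distribution. The fits were tested on simulated data.

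The replicate numbers come from the labels, and each deposited table holds 1 number. Deviations of same-numbered libraries from their group means correlated (r = 0.641 across genes), but the sources do not say that a number marks shared animals. If the replicates are not separate cultures, p-values measure technical spread only.

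Besides the 8 genes, the text names in each list those at an unadjusted p under 0.05 and up to 3 with the largest differences among genes with 10 counts in every library, the 3 most abundant P450 genes, the 5 nearest profiles and overlapping genes. Gstm1, Gstm2, Gstp1, Nqo1, Hsp90ab1, Arnt2, Ugt1a7c, Col1a1 and the genes at or near 0 were added once their values were known. Some members of the lists are not reported here by name. Near-identical copies were sought with BLAST 2.17.0 at 90% identity over 200 bases. Coordinates are those of the files, and promoter windows are from RefSeq on GRCm38.p6.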

Additional observations from a re-analysis of the deposited data

How the results depend on the processing

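With the replicate block, Cyp1b1 passed the unadjusted threshold at -0.85 in edgeR and -0.86 in DESeq2, as it had not without the block. The block changed no other call among the 8 genes, so that 1 passed in either tool, and it moved the genes at an unadjusted p under 0.05 from 16 (4 higher, 12 lower) to 444 (293 higher, 151 lower) in edgeR and 153 (92 higher, 61 lower) in DESeq2. Pathway genes went from 0 to 4 and 2, those of the AHR battery to 1 and 1, and epoxide hydrolases and transferases to 3 and 1. At an adjusted p under 0.1 there were 1 and 7 genes, against 0 without the block and 1 in DESeq2 without it. DESeq2 without the block called 20 genes lower at an unadjusted p under 0.05. Upper-quartile factors left 2 higher, as did no filter on low counts. The filterByExpr rule left 6 (2 higher, 4 lower), 10 counts in every library left 3 (2 higher, 1 lower), and genes of all biotypes gave 35 (10 higher, 25 lower). The cause of these shifts was not tested.

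Leaving out 1 library at a time, without the block and with the lone library assumed to vary like the other group, gave 8 to 131 genes (3 to 13 higher, 3 to 128 lower), 0 to 1 pathway genes, and 0 of the 8 genes passed. The highest count, 131, came without EGCG replicate 2. Cyp1b1 ran from -1.73 to 0.042, its sign turning without Vehicle replicate 1. With a library left out, the replicate numbers are unequal between the groups, so the estimates also take in the difference between the replicates. The sign also turned in at least 1 of these fits for Cyp1a1 (-6.80 to 6.12), Ahr (-0.70 to 0.72), Arnt (-0.30 to 0.17), Tiparp (-0.39 to 0.40), Sult1a1 (-1.04 to 1.86) and Ephx1 (-0.19 to 0.22), and not for Ahrr (0.09 to 0.15). In the contrast of the replicates, Ahrr was -0.010 with upper-quartile factors. That contrast could not be fitted with a library left out, since no residual degrees of freedom remain. Under the alternatives run, 324 other values kept their direction and side of the threshold or their size. Depth limits Cyp1a1 most, with at most 22 counts.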
